A study of Homo sapiens with 3 samples.

Results

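The members are H3K9me3 regions that touch an annotated gene promoter and hold no CpG island. They were taken from the authors' deposited region table as every region with at least 1 promoter and 0 CpG islands in the annotation columns, on chromosomes 1 to 22 without chromosome 19. This gave 1455 regions in the control library and 1468 in the CXCL12 library, 2923 in all of 54116 regions in the table. The series mapped H3K9me3, the trimethyl mark at lysine 9 of histone H3, by ChIP-seq, in which antibody-bound chromatin is sequenced, in the human T cell leukaemia line Jurkat. All cells were held in medium without serum for 90 min. One group then got 100 ng/ml of CXCL12, a chemokine, during 15 min, and the control group got none. Each group is a single library, so replicate error is unknown and no test was made. Treatment and preparation cannot be told apart in any difference given. An input library belongs to the series and was not analysed here.

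H3K9me3 is written by SUV39H and SETDB1 methyltransferases, read by HP1 proteins, and marks compacted, silent chromatin. It is known for repeats, for zinc finger gene clusters and for gene families that a cell lineage does not use. CpG islands are stretches rich in the dinucleotide CG that sit at the starts of most housekeeping genes and many developmental genes. Promoters that lack them often belong to genes used in a single tissue, such as olfactory receptors, keratins and secreted plasma proteins. Jurkat cells carry CXCR4, the receptor through which CXCL12 attracts lymphocytes.

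The sequences of 9 gene starts are given as picked examples of covered starts and of starts with the region upstream only. They do not measure how common either kind is, and few CG at a covered start is partly set by the rule of 0 islands. Each is the RefSeq window of 250 bases before to 50 bases after a start in GRCh38.p14, read 5′ to 3′ on the gene's strand, with every CG dinucleotide in capitals. The first 5 belong to genes whose start lay inside a region in both libraries. They are the interferon-inducible myeloid protein MNDA, the olfactory receptor OR1L4, the hair protein KRTAP10-8, the chemokine receptor XCR1 and the monocyte lectin FCN1, and each window holds 1 or 2 CG dinucleotides.
MNDA: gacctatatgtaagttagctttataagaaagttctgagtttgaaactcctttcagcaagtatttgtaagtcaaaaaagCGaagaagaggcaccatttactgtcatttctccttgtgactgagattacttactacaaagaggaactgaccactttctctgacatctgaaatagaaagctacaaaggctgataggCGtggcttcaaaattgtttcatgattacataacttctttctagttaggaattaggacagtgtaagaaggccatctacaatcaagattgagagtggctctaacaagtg
OR1L4: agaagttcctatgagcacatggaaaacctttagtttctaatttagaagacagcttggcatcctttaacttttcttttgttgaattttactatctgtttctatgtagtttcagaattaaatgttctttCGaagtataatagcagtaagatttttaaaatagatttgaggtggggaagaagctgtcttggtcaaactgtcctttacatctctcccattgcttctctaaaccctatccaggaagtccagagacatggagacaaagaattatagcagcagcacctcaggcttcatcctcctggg
KRTAP10-8: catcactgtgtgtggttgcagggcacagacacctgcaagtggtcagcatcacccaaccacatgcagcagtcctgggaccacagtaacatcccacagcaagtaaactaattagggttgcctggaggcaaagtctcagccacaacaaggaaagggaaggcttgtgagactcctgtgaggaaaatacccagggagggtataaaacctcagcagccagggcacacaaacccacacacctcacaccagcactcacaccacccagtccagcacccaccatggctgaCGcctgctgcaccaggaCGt
XCR1: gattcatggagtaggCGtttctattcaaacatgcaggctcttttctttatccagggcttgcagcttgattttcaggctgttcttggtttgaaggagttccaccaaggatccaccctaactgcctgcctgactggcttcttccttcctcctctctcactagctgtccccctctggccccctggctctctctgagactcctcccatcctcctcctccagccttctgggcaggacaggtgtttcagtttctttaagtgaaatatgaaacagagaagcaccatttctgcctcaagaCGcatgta
FCN1: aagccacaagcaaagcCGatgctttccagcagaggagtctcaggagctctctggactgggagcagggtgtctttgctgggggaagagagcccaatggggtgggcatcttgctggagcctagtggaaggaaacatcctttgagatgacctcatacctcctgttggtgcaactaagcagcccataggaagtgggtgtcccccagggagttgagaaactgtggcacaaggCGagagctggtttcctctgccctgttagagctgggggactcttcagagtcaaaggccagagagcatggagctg
The other 4 belong to genes whose region lay only upstream of the start. IL7R, the receptor of interleukin 7, has 0 CG dinucleotides and a TATAAA match. LSM14B, an RNA-binding protein, has 46, MPHOSPH8, the H3K9me3 reader of the HUSH silencing complex, has 31, and DEK, a chromatin protein, has 47.
IL7R: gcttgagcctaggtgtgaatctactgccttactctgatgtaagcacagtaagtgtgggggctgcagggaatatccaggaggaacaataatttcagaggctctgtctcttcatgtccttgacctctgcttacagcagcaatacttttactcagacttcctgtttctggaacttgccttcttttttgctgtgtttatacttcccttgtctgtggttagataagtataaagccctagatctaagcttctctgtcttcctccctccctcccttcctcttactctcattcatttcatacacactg
LSM14B: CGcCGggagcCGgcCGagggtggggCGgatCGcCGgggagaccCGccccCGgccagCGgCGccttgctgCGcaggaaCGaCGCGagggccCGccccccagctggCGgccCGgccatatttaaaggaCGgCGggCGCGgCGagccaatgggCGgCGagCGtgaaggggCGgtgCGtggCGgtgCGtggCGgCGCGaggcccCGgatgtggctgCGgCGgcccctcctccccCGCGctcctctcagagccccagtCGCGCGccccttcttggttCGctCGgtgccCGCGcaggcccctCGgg
MPHOSPH8: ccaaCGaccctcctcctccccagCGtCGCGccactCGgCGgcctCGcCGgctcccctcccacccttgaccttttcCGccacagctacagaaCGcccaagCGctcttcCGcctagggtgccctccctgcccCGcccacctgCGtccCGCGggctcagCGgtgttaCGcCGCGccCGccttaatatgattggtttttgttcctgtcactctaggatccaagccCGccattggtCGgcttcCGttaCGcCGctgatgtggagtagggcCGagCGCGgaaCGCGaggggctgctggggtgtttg
DEK: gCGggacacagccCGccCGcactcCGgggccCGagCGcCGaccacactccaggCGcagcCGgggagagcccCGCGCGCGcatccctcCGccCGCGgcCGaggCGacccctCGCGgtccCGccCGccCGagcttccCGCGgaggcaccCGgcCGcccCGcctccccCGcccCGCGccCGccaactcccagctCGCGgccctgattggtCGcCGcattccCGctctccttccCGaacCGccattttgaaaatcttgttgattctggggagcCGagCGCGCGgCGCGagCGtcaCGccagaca
These windows lie on chromosome 1 at 158831101 to 158831400 (MNDA), 9 at 122723740 to 122724039 (OR1L4), 21 at 44611829 to 44612128 (KRTAP10-8), 3 at 46027434 to 46027733 on the minus strand (XCR1) and 9 at 134917863 to 134918162 on the minus strand (FCN1). The upstream set lies on chromosome 5 at 35856641 to 35856940 (IL7R), 20 at 62122225 to 62122524 (LSM14B), 13 at 19633409 to 19633708 (MPHOSPH8) and 6 at 18264481 to 18264780 on the minus strand (DEK). All other positions in the text are the table's own, in hg19, and no position was carried from one build to the other.

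The members made up 5.85% of the control regions and 5.84% of the CXCL12 regions on the same chromosomes, and 7.29% and 7.27% of the length those regions cover. The median member was 4800 bp long in control (95% order-statistic interval 4600 to 5000) and 5200 bp after CXCL12 (5000 to 5200). Its mean signal, the authors' value averaged over the bins of a region, was 5.61 in control (5.44 to 5.79) and 5.72 after CXCL12 (5.52 to 5.89). Promoter regions that held an island, 435 in control and 409 after CXCL12, carried more signal, with medians of 7.59 and 7.64. Regions with neither a promoter nor an island had medians of 4.97 and 5.02, so the members sat between both classes. Members ranged from 200 bp to 116400 bp, and their mean signal ranged from 2.35 to 50.4. Exactly 1 promoter was touched by 91.3% of control members and 92.3% of CXCL12 members. By chromosome the members' share of regions ran from 4.15% on chromosome 8 after CXCL12 to 10.7% on chromosome 17 in control. These intervals cover the spread over regions within a library only, and the depth of the libraries is unknown because no read counts are given.

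The word promoter is wide in this table. Its promoter counts were recovered in 99.99% of the regions with known strands by a window from 7500 bases before to 2500 bases after a gene's start, so a member need not reach the start. Only 232 control members (15.9%; exact 95% interval 14.1 to 17.9) and 246 CXCL12 members (16.8%; 14.9 to 18.8) covered a start. Another 1034 (71.1%) and 1035 (70.5%) lay wholly upstream of every start they were annotated to. Over all pairs in which a member lay upstream of a gene's start, its nearer edge was 4319.5 bp from the start at the median in control. After CXCL12 it was 4366 bp. Members wholly downstream numbered 131 and 128, and 46 and 44 lay upstream of one gene and downstream of another. The position of 12 and 15 members could not be fixed. Members over a start were longer than upstream members, at 6600 against 4400 bp in control and 7800 against 4800 bp after CXCL12. A longer region is more likely to reach a start, so this contrast is partly set by the position classes. The median mean signal of members over a start was also higher, at 6.22 against 5.45 in control and 6.63 against 5.55 after CXCL12. This was not so in control among pairs whose start window had a ratio of observed to expected CG under 0.4. There the medians were 5.42 (5.08 to 7.10) against 5.46 (4.89 to 6.01) in control. After CXCL12 they were 6.37 (5.54 to 7.22) against 5.43 (4.88 to 6.18).

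Promoter regions with an island were placed differently. Of their pairs with a gene, 62.5% in control and 59.6% after CXCL12 had the start inside the region, against 19.9% and 20.3% of the members' pairs. Without microRNA and small nucleolar RNA genes, many of which lie side by side in clusters, the members' shares were 15.2% and 16.0% and the island regions' shares 62.4% and 59.1%. The island itself usually sits at the start, so the contrast is partly set by the rule that chose the members.

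**Figure D1:**
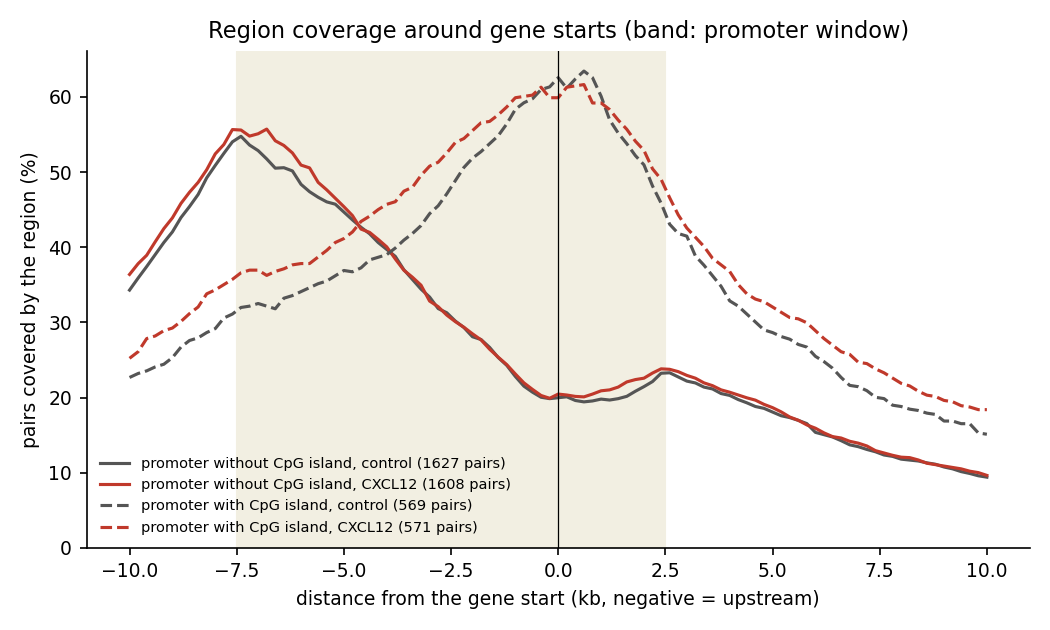
Percent of region and gene pairs in which the region covers a given distance from the gene's start (horizontal axis in kb, negative upstream), for promoter regions without (solid) and with (dashed) a CpG island in control (grey) and CXCL12 (red). At the start 325 of 1627 members' pairs were covered in control and 329 of 1608 (20.5%) in CXCL12, against 62.6% and 59.9% of the island pairs; the shoulders at the edges of the shaded window follow from the way regions were annotated.

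The CpG content of the gene starts separated both placements. A start was matched to a RefSeq window where its offset between the builds equalled that of its neighbours within 500 bases, which held for 4267 of 5034 starts (84.8%). A window counts as CpG-rich with over 50% G and C and a ratio of observed to expected CG above 0.6. Among protein-coding genes whose start lay in a member in either library, 4 of 74 (5.41%; exact 95% interval 1.49 to 13.3) had a CpG-rich window, and the median ratio was 0.20. These 4 were ARMC3, C3orf56, the linker histone gene HIST1H1A and the RNase P subunit gene RPP30, named after their values were seen. Among genes with the member upstream only, 487 of 714 (68.2%; 64.7 to 71.6) were CpG-rich, with a median ratio of 0.79. The share over all 13916 protein-coding genes with a window on these chromosomes was 63.9%, by the first RefSeq window of each gene. It was 67.9% over the 3754 genes that the table lists at any region and whose start was matched. The low value at covered starts is partly built into the absence of an island. Upstream members end before the start, but the rule also left out upstream regions that hold an island. At 3000 bases before the start in control, members supplied 118 of the 222 covered CpG-rich genes. They supplied 66 of the 75 covered CpG-poor genes there. The upstream value can thus be shaped by the rule too. The name of the set comes from the annotated island count of the regions, whose own sequence was not read. It does not describe most of the gene starts they are annotated to. Over all genes listed at a member, covered or not, the median ratio was 0.74 beside 0.79 at promoter regions with an island.

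**Figure D2:**
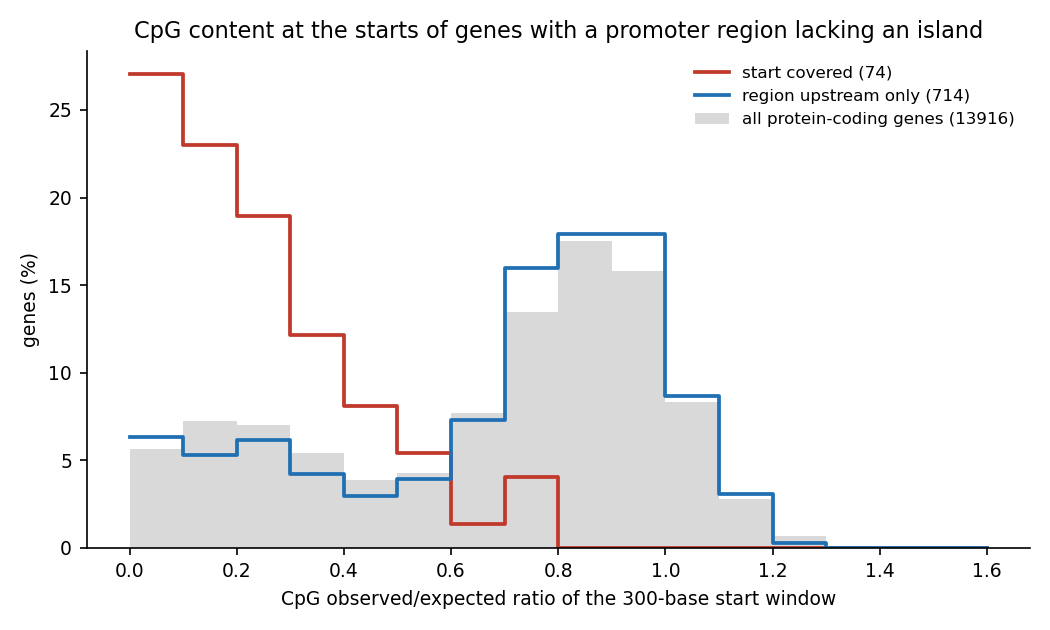
Distribution of the observed to expected CG ratio in the 300-base window at the gene start (horizontal axis; vertical axis in percent of genes) for all protein-coding genes (grey bars), 74 genes with a covered start (red) and 714 genes with the region upstream only (blue). The grey bars use the first RefSeq window of each gene, the red and blue lines the matched window. The red genes lie mostly under 0.4, with a median of 0.20, while the blue genes follow the grey bars, with a median of 0.79.

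Short promoter motifs were counted on both strands of the same windows. For all protein-coding genes the first RefSeq window of each gene was used. TATAAA occurred at 18 of 74 covered starts (24.3%), at 68 of 714 upstream-only genes (9.52%) and in 9.95% of all protein-coding windows. GGGCGG, the GC box, occurred in 10.8%, 61.8% and 58.2%. CCAAT occurred in 33.8%, 37.4% and 35.6%. The windows of the 776 CpG-poor genes listed at any region, those with a ratio under 0.4, held TATAAA in 23.8% and GGGCGG in 9.15%, close to the covered starts. A match describes letters in a window and is not a binding site.

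Coverage was also counted by CpG class over the genes listed at any region, members or not. At CpG-rich starts 147 of 2396 genes (6.14%) were under H3K9me3 in control and 125 of 2380 (5.25%) after CXCL12. At CpG-poor starts it was 57 of 707 (8.06%) and 66 of 717 (9.21%). At 4500 bases before the start the shares were 11.2% and 11.8% for CpG-rich genes and 12.9% and 14.9% for CpG-poor genes. At 1500 bases after the start control coverage was 5.63% and 7.07% in these classes, and at 7500 bases after it 8.89% and 15.3%. Coverage in these genes was thus lower around the start, from the start to shortly after it, than farther out on either side. Only genes already listed at a region were counted, so the shares by distance are partly shaped by that listing. The members supplied 46 of the 57 covered CpG-poor starts in control and 53 of the 66 after CXCL12, but only 4 of 147 and 3 of 125 of the CpG-rich ones. This split is largely set by the rule, since a region over a CpG-rich start will usually hold an island.

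The starts inside members belonged to 397 genes in either library, of which 274 were covered in both. Protein-coding genes supplied 134, or 0.758% of the 17675 on these chromosomes, with 106 (0.6%) in control, 112 (0.634%) after CXCL12 and 84 in both. Members touched the promoter window of 1248 protein-coding genes (7.06%), 1043 (5.9%) in control and 1064 (6.02%) after CXCL12. Over these 84 the region's mean signal ran from 3.17 to 15.1 with a median of 6.67 in control, and from 3.27 to 16.0 with a median of 6.83 after CXCL12. CXCL12 values were above control at 46 genes and below it at 38, the log2 ratio ran from -0.49 to 0.48, and 0 genes differed by 1.5-fold.

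Several genes with a covered start encode immune proteins, and those given here were chosen after their values were seen. Among the lists, cytokine and chemokine receptors had 1 covered start of 75, at CXCR2. That list does not hold XCR1, so its count leaves out the covered start of XCR1. Interferons, interleukins and chemokines had 2 of 114. The intervals of both lists as written hold the 0.758% of all genes. XCR1, the receptor of the chemokine XCL1 on dendritic cells, lay in a region with mean signal 9.51 in control and 9.07 after CXCL12 (chr3:46067800-46074199 in control). CXCR2, the neutrophil receptor of CXCL8, lay in a 19400 bp region with 7.76 and 8.16. TNFSF11, the cytokine RANKL that drives osteoclast formation, had 7.31 and 6.45. These genes were marked in both libraries, at levels above the median of 6.67 in control. CD180, a B cell relative of the Toll-like receptors, had 4.65 and 5.14, and FCN1 had 5.18 and 4.97. The killer cell lectins KLRC1 and KLRD1, which pair as an inhibitory receptor on natural killer cells, had 5.13 and 5.61, and 4.39 and 4.33. MNDA had 11.2 over 4000 bp in control (chr1:158797400-158801399) and 9.44 over 7600 bp after CXCL12. Regions covered these starts in both libraries.

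Olfactory receptors, the odour sensors of the nasal epithelium, supplied 12 covered starts of 369 genes (3.25%; 1.69 to 5.61), beside 0.758% of all protein-coding genes. Members touched the window of 33 (8.94%; 6.24 to 12.3), an interval that holds the 7.06% of all genes. OR1L4 had 7.10 in control and 8.15 after CXCL12, and OR10K1 had 7.93 and 6.65. OR6Y1 had 7.09 and 6.05. A 510.2 kb stretch of chromosome 1 from 158384600 to 158894799, from OR10K2 to the interferon-inducible gene PYHIN1, held 14 members in control and 17 after CXCL12. They covered the starts of 6 and 7 genes and 14.2% and 18.1% of the stretch. The intervals above take genes as independent, which neighbouring genes are not, so they are likely too narrow. This stretch and those below were chosen after the values were seen.

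Keratins and keratin-associated proteins, the structural proteins of skin and hair, supplied 12 covered starts of 149 genes (8.05%; 4.23 to 13.6). Members touched the promoter window of 23 (15.4%; 10.0 to 22.3), beside 7.06% of all protein-coding genes, and no gene of the list was at a promoter region with an island. KRTAP10-5 had 14.4 in both libraries, the second highest control value among the 84 genes covered in both. KRTAP10-8 had 10.7 and 10.2 and KRTAP4-6 had 10.4 and 9.42. On chromosome 21, from 45963400 to 46098199, 6 members in control and 8 after CXCL12 covered 46.7% and 48.7% of a 134.8 kb stretch and 7 starts of KRTAP10 and KRTAP12 genes in each. All regions called within that stretch were members. Neighbouring genes there share regions, so the intervals of this list, which take genes as independent, are likely too narrow. The coding sequences of this family are near-identical in places, and reads could have been shared between copies. The epidermal differentiation complex, which encodes proteins of the outer skin layer, supplied 3 covered starts of 56 genes, at FLG2, LCE3B and LCE3C. LCE3B had 6.60 and 5.34.

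The next genes with a covered start were also chosen after their values were seen and form no list. SERPINA4, the plasma inhibitor kallistatin, had 7.34 in control and 7.41 after CXCL12. NOS3, the endothelial nitric oxide synthase, had 12.8 and 10.6. CFTR, the epithelial chloride channel, had 8.61 and 8.50 in a region of 1400 bp in control. SLC22A12, the kidney urate transporter, had 9.33 and 7.18. PGBD5, a gene derived from a transposase, carried the highest signal of the 84 genes, with 15.1 and 16.0.

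**Figure D3:**
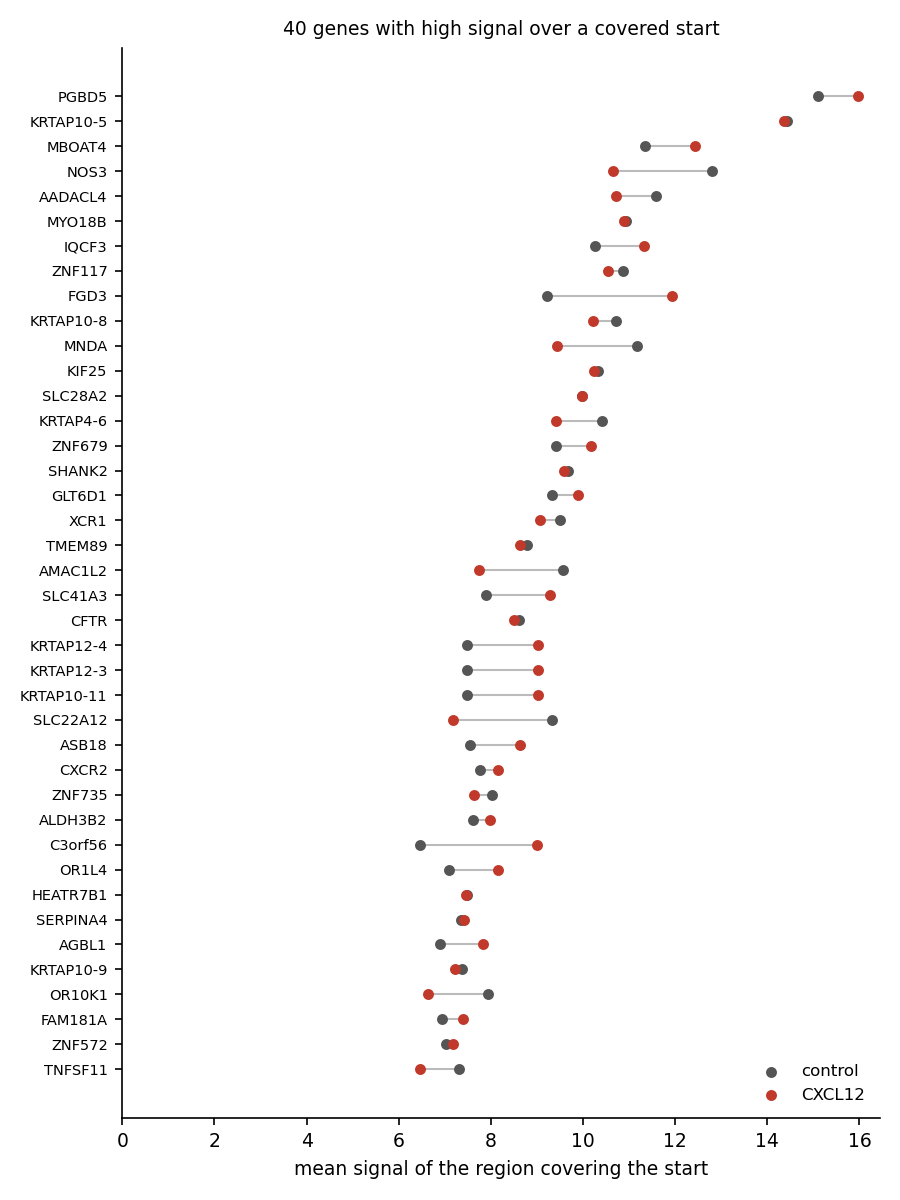
Mean signal of the region that covers the gene start in control (grey) and CXCL12 (red) for 40 of the genes with the highest signal among 84 protein-coding genes covered in both libraries. The values run from 6.45 to 16.0, and the libraries lie closer together than the genes do; genes such as KRTAP12-3, KRTAP12-4 and KRTAP10-11 share 1 region and so share its value.

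Small RNA genes in tandem clusters gave the regions with the most promoters among the named loci. All 76 small nucleolar RNA genes with a covered start were covered in both libraries. Regions over the SNORD116 cluster, the paternally expressed guides lost in Prader-Willi syndrome, held 33 promoters and had a mean signal of 25.8 over 100200 bp in control (chr15:25264800-25364999) and 28.5 over 102000 bp after CXCL12. At the neighbouring SNORD115 cluster, with 48 promoters, the locus had 40.4 and 42.3. Repeated copies share sequence there, so reads could be shared between copies and these 2 clusters count as single observations. From SNRPN to SNORD115-48, chromosome 15 from 25023800 to 25512399, regions of any class covered 88.5% in control and 92.7% after CXCL12. MicroRNA genes with a covered start numbered 30, of which 9 were covered in both libraries and 16 in control only. For 11 of the 30 the other library covered the start with a region that held an island. They include MIR134, whose control region (chr14:101510200-101528599, mean signal 7.80) touched 23 promoters, and the CXCL12 region over the same start is not a member because it holds an island.

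Zinc finger genes, which are classic H3K9me3 targets, were split between both promoter classes. Members touched the windows of 61 of 306 (19.9%; 15.6 to 24.9), but only 6 starts lay in a member, while 69 genes were at promoter regions with an island and 42 of those had the start covered there. ZNF117 had 10.9 and 10.5 over its covered start, ZNF679 had 9.42 and 10.2 and ZNF735 had 8.02 and 7.63, all within an 804.2 kb stretch of chromosome 7 in which regions of any class covered 73.9% and 75.1%. ZNF124, with the member downstream of its start, had 15.6 over 43000 bp and 17.4 over 39800 bp. Clustered protocadherins, the neuronal adhesion proteins, were the opposite case, with 4 of 53 genes at members, 0 covered starts, and 43 at promoter regions with an island.

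T cell genes were touched by members at 8 of 37 (21.6%; 9.83 to 38.2), beside 7.06% of all protein-coding genes. Their 0 covered starts stand beside 0.758% of all genes, a share at which a list of this size need not hold any. The region before IL7R had 13.8 in both libraries over 8400 and 8200 bp (chr5:35842600-35851199), with a highest bin of 51 in control and 34 after CXCL12. LAT, the adaptor of the T cell receptor, had 7.29 and 6.81, and RAG1, the recombinase of receptor gene assembly, had 6.39 and 7.08. CCR7, a lymph node homing receptor, had 4.37 and 5.01, and GZMA, RAG2 and TRAT1 were also touched. The defining markers CD3E and CD4 were not listed at any region, and CD8A and IL2 were listed at regions that are not members. Of the fixed marker sets, 2 of 12 T cell, 1 of 7 B cell and 0 of 7 myeloid genes were touched and 0 starts were covered. The B cell and myeloid list had 4 of 27 touched, at BLK, FCN1, POU2AF1 and S100A12. The mark alone does not give the expression of these genes, which was not measured.

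Genes of the H3K9 methylation machinery were touched at 5 of 23 (21.7%; 7.46 to 43.7), beside 7.06% of all protein-coding genes, which the interval's lower end nearly reaches. The member upstream of ATF7IP, the partner of SETDB1, was 34800 and 31400 bp long with 7.88 and 9.53. Those at MORC2 and MPHOSPH8, the HUSH-linked silencers, had 6.81 and 9.44, and 4.74 and 6.11. The region at EHMT1, the G9a-like methyltransferase, covered the table's start with 5.31 and 6.70. SETDB1 had 1 member region, and SUV39H1 and EHMT2 were not listed at any region. The CXCL12 mean was the higher one at all 4 of the shared loci just named, and the CXCL12 region was the shorter one at each. The CXCL12 mean was also higher at 808 of the 1402 member loci with regions in both libraries. Over the whole table it was higher at 12283 of 21541 such loci. By signal summed over all bins the log2 ratio was 0.14 at ATF7IP and 0.23 at MORC2, but -0.39 at EHMT1 and -0.09 at MPHOSPH8. Neither CXCR4, CXCL12 nor LMNA was listed at any region.

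Taste receptors were touched at 8 of 28 (28.6%; 13.2 to 48.7) with 1 covered start, at TAS2R30, and the neighbouring TAS2R13, TAS2R14 and TAS2R46 had mean signals from 4.39 to 7.21. Cytochromes P450 and UDP glucuronosyltransferases, the drug-metabolising enzymes, were touched at 10 of 65 (15.4%; 7.63 to 26.5), beside 7.06% of all protein-coding genes. UGT3A1 had the only covered start of that list, in a region with 3.17 in control and 3.38 after CXCL12, and a separate region upstream of it had 10.6 and 11.2. Solute carriers stood at 28 of 368 (7.61%), interferons, interleukins and chemokines at 8 of 114 (7.02%) and voltage-gated ion channels at 7 of 130 (5.38%). Globins and erythroid genes had 0 of 21 (upper bound 16.1%). Recently duplicated primate families had 2 of 211 (0.948%), where reads from near-identical copies could also be missing.

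**Figure D4:**
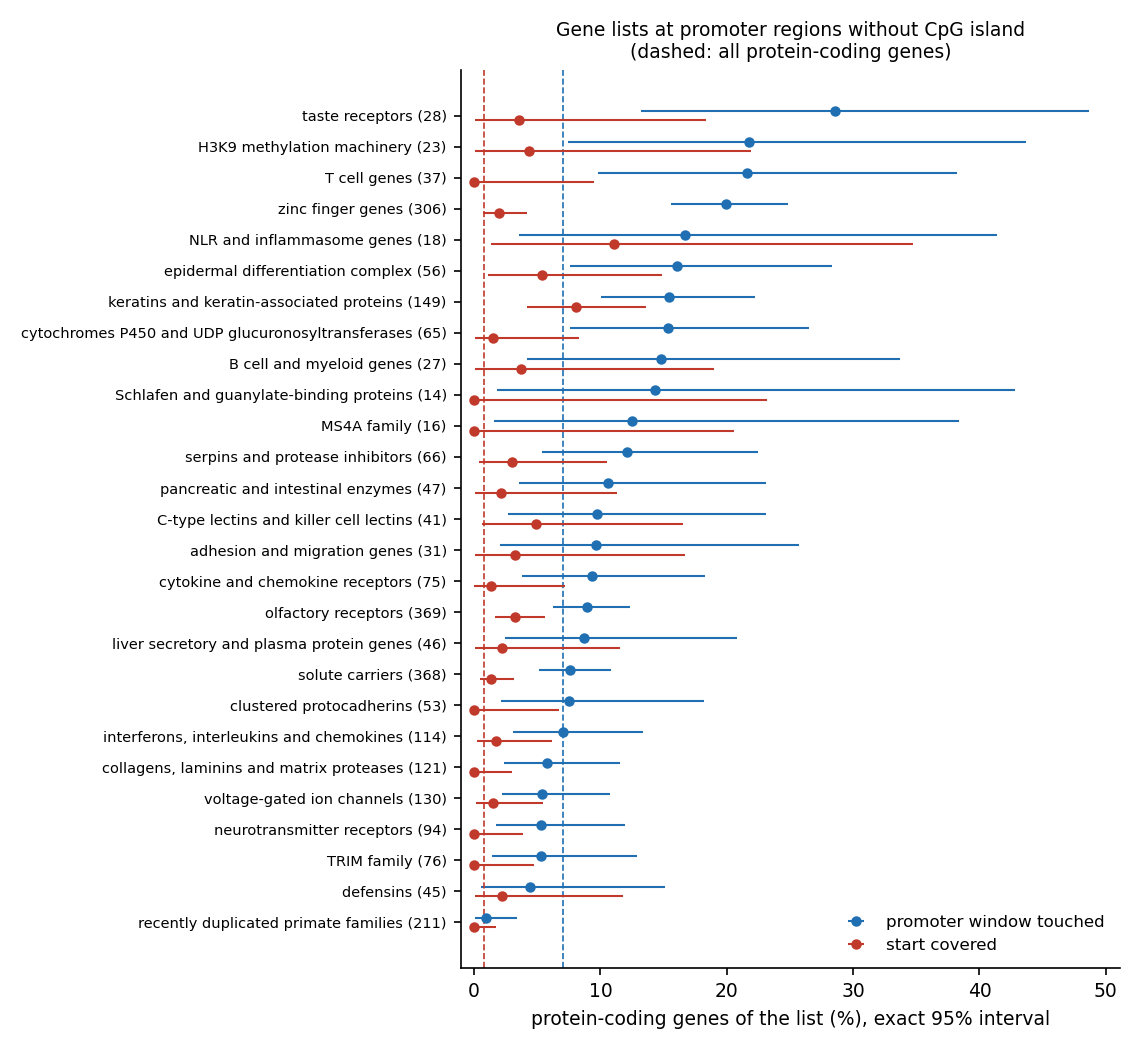
Share of the protein-coding genes of each list (list size in brackets) whose promoter window is touched (blue) or whose start is covered (red) by a promoter region without CpG island in either library, with exact 95% intervals. Dashed lines mark the shares over all protein-coding genes, 7.06% and 0.758%. The whole interval of the touched share lies above the blue line for keratins, zinc finger genes, T cell genes and taste receptors. It also does for the epidermal differentiation complex, cytochromes P450 with UDP glucuronosyltransferases, and the H3K9 machinery, with lower ends of 7.62%, 7.63% and 7.46%. The intervals take genes as independent, though clustered genes share regions, and are not adjusted for the number of lists. They describe the lists and are not tests.

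The highest signals among all members were at a few loci present in both libraries. A 1200 bp region at TCEB3C, a multicopy elongin gene, had 42.7 in control and 50.4 after CXCL12 (chr18:44553200-44554399). The region upstream of ODF3, a sperm tail protein, had 31.2 and 27.9, and that upstream of SMYD3, a lysine methyltransferase, had 22.9 and 25.2 over 23600 and 23200 bp. The region upstream of LSM14B had 18.7 and 19.4 over 27400 and 26800 bp, beside the start sequence rich in CG shown above. Leaving aside loci with only LOC or MIR symbols, the longest were at ZNF678, with 159400 and 158400 bp summed over its regions, and at BAGE on chromosome 21, with 107600 and 111000 bp. The locus of MIR571 was longer still, at 246400 bp (control) and 241200 bp (CXCL12). TCEB3C and BAGE have close copies, so their levels are uncertain.

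The comparison of CXCL12 with control asks whether 15 min of chemokine moved the mark at these promoters. Regions of either library that overlapped by at least 1 bp were joined into loci, and 1717 loci held a member. Of these, 1402 had regions in both libraries, 149 (8.68%) in control only and 166 (9.67%) after CXCL12 only. Over all 29404 loci of the table the control-only share was 12.2% and the CXCL12-only share 14.6%. Single-library loci had the lower values, with medians of 2800 bp and 4.14 in control and 2600 bp and 4.13 after CXCL12, against 5400 and 5600 bp, and 5.85 and 6.03, at shared loci.

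At the 1402 shared loci the mean signal moved little. CXCL12 over control gave a median log2 ratio of 0.04 (order-statistic interval 0.03 to 0.06) and the standard deviation over loci was 0.25, and the median over all 21541 shared loci was 0.04 too. The 258 loci with a covered start had a median of 0.02 (-0.00 to 0.05), the 981 with the member upstream only had 0.04 (0.03 to 0.06), and the 413 promoter loci with an island had 0.00 (-0.02 to 0.02). At least 2-fold higher after CXCL12 were 3 loci, beside 0.116% of all shared loci, and 3 were at least 2-fold lower, beside 0.176%. By the highest bin 3 were higher and 2 lower, beside 0.696% and 0.279%.

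**Figure D5:**
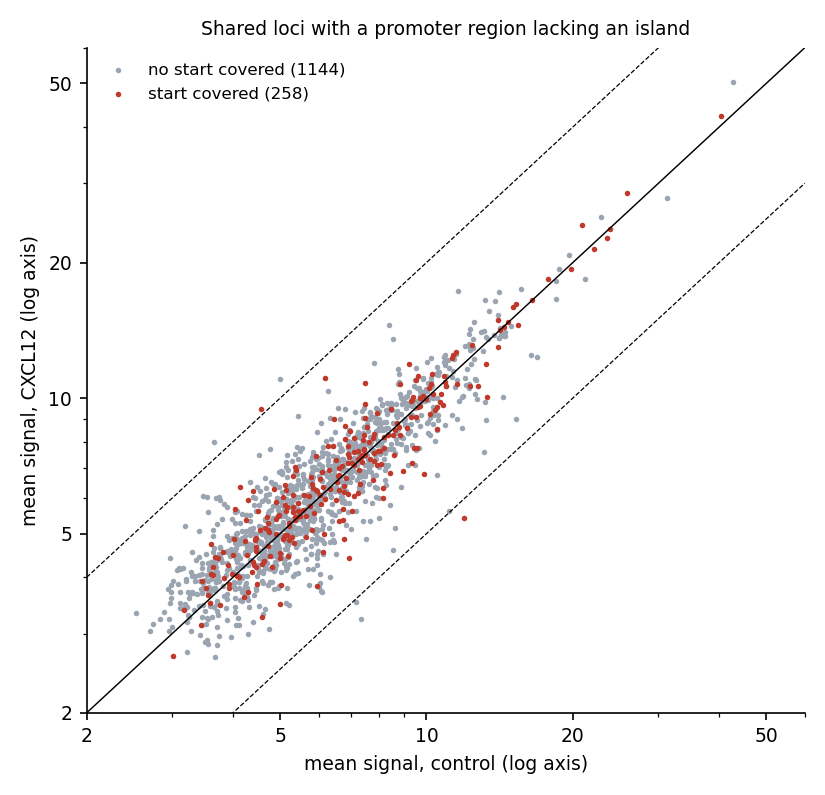
Mean signal of the 1402 shared loci with a promoter region lacking an island, control on the horizontal and CXCL12 on the vertical log axis, with lines of equality (solid) and 2-fold difference (dashed). The 258 loci with a covered start (red) and the others (grey) follow the line of equality, and 3 loci lie past each dashed line.

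The 6 loci past 2-fold all differed in length. LCE3C, a skin envelope gene, had 4.56 over 5400 bp in control and 9.46 over 1600 bp after CXCL12, while its highest bin was 22 in both. ZNF596 had 3.65 over 1600 bp and 8 over 600 bp, and an uncharacterised locus on chromosome 9 had 5.00 over 1000 bp and 11.0 over 200 bp. In the other direction CYP2E1, the ethanol-metabolising P450, had 7.17 over 400 bp and 3.52 over 2000 bp. SNPH, a neuronal mitochondrial anchor, had 7.34 over 1400 bp and 3.23 over 3200 bp, and MIR552 had 11.9 over 1400 bp and 5.40 over 4000 bp. The shorter region had the higher mean in each case.

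The same relation ran through the set and through all shared loci of the table. Across the 1402 loci the log2 ratio of mean signal and the log2 ratio of length had a Pearson correlation of -0.62. Over all 21541 shared loci it was -0.63. Both values are descriptions, since mean and length come from the same called regions. Where the CXCL12 regions were at least 1.5 times shorter, at 90 loci, the median log2 ratio of the mean was 0.33 (0.27 to 0.38). Where they were at least 1.5 times longer, at 161 loci, it was -0.24 (-0.30 to -0.17). At the 778 loci with lengths within 1.2-fold it was 0.06 (0.05 to 0.07), and 0 of these passed 2-fold. The median ratio of the highest bin was 0.13, 0.00 and 0.08 in the shorter, longer and within 1.2-fold groups in turn. In that order the groups held 6.42%, 11.5% and 55.5% of the 1402 loci. Of all shared loci they held 8.06%, 14.6% and 50.7%. The median log2 ratios of the mean there were 0.36, -0.23 and 0.06, and 0 of the 10930 loci within 1.2-fold passed 2-fold.

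Among loci at or above the median signal, most of the largest ratios named had the shorter region in the library with the higher mean. DDX11L9, a gene with close copies whose level is uncertain, was an exception, with 11.6 and 17.3 over 800 bp in each. NCAPG2, a condensin subunit, had 8.38 over 3600 bp in control and 14.6 over 2200 bp after CXCL12, and DPP4, the T cell surface protease CD26, had 6.28 over 6800 bp and 10.4 over 4400 bp. PRR23C had 5.45 over 4400 bp and 9.13 over 3800 bp. The region upstream of DEK had 6.07 over 3600 bp and 8.82 over 1600 bp. On the low side B4GALNT4, a glycosyltransferase, had 11.1 over 2600 bp and 5.60 over 7200 bp, and IQGAP1, a scaffold of the cell cortex, had 13.2 over 3400 bp and 7.57 over 6000 bp. CAPN5, a calpain protease, had 15.3 over 4600 bp and 8.97 over 8400 bp. TMEM14C differed less in length, with 10.5 over 4200 bp and 6.75 over 5400 bp, and its highest bin went from 30 to 18.

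The strongest single-library loci ranged from 200 to 34200 bp. In control they were MGC34800 (mean signal 10.7 over 200 bp), FLJ44653 with SYCE1 (9.67 over 400 bp), ATG4B with THAP4 (9.45 over 1200 bp), DEGS2 (8.08 over 4000 bp) and TDRG1 (7.21 over 3000 bp). After CXCL12 they were ALS2CR12 (9.72 over 1400 bp), RNF141 (9.48 over 1600 bp), a 34200 bp region over the start of ZNF716 (7.66), PLA2G2A (7.50 over 1800 bp) and C10orf54 (7.31 over 2800 bp). No signal is listed for the library without a call, so none of these has a ratio.

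Gene starts covered in a single library, 61 in control and 62 after CXCL12, mostly had a region nearby in the other. The other library had a region in the same locus that stopped short of the start at 73. At 17 it covered the start with a region that held an island, and at 33 it had no region there. SELP, the platelet selectin, was covered after CXCL12 only, in a locus with 10.8 over 8800 bp in control and 9.65 over 11600 bp after CXCL12. TLR1, a receptor for bacterial lipopeptides, and CRP, the acute phase protein, were also covered after CXCL12 only, with 7.76 and 7.12, and both had a control region in the locus. CCL18, a macrophage chemokine, was covered in control only, with 3.15 over its region and no CXCL12 region in the locus.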

How the data were processed

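H3K9me3 regions of 1 CXCL12 and 1 control library of Jurkat cells were used. Per the submitters' processing notes, BWA 0.7.12, SICER 1.1 and the hg19 build were used. Their settings, the read depth and any scaling or input correction are not stated in the sources. Each region has 2 deposited signal values, per the file headers, its average over bins and its highest bin, and the deposited counts of promoters, CpG islands, genes and bins are whole numbers per region. Gene starts were computed from each region's highest bin and its listed distance to the start, with strand from the table or from RefSeq. Of 7664 symbols 85.9% matched a RefSeq symbol. Chromosome 8 start windows were not used here. Python 3.11.15, pandas 2.3.3 and scipy 1.17.1 were used, and the computation was tested on simulated data.

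Ratios have no pseudocount. Shares have exact Clopper-Pearson and medians exact order-statistic 95% intervals. Those of gene lists take genes as independent and are not adjusted for the number of lists. Samples were grouped by treatment label. Genes were named by a rule: the shared member loci with the 10 highest signals, the 6 longest, the 10 largest and 10 smallest ratios where signal reached the members' median, the 5 strongest single-library loci of each library, and up to 4 per gene list, skipping loci with only LOC or MIR symbols. Genes at covered starts beyond it, and the 6 loci past 2-fold, were chosen after their values were seen. The members and lists were chosen with earlier results of these data known. The table gives no exon or intron for a region. Whether its coordinates count from 0 or 1 is not stated. Some genes that the naming rule or the plots would include are not reported here.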

Additional observations from a re-analysis of the deposited data

How the results depend on the processing

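Of 43 alternative settings 27 moved the value by less than its interval, or a count by at most 1.5 times, and 0 reversed a direction. The share of members in a shared locus was 89.8% in control and 88.7% after CXCL12. It became 86.9% and 84.5% when 50% of the region had to be covered, 95.7% and 97.3% for regions at or above the median signal, and 81.4% and 80.0% when the partner had to be a member too. The median log2 ratio of 0.04 became 0.0746 with the highest bin, 0.11 with summed signal, 0.000704 when centred on all shared loci and 0.0574 over loci with a single region on each side whose lengths differed by under 1.2-fold. At 1.5-fold 21 of the 1402 shared member loci were higher and 19 lower. The share over all shared loci at 1.5-fold is not given, so these counts have no background beside them. The standard deviation of the log2 ratio was 0.25 over the 1402 loci and 0.27 over all 21541 shared loci. The median highest bin was 16 in both libraries. The shares of covered starts without small RNA genes, an alternative chosen after seeing the data like the choice of RefSeq window, were 15.2% and 16.0%. With the first RefSeq window of every gene 11.5% of covered and 65.2% of upstream-only genes were CpG-rich. No paired analysis was possible because each group has 1 library. The unknown depth limits all signal ratios, and region ends, which set both the mean and whether a start is covered, depend on it.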
